A study of Mus musculus with 20 samples.

Results

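Non-tumour liver of obese mice that had run on a treadmill was compared with non-tumour liver of obese mice that had not. The comparison holds the 8 RNA-seq libraries whose titles name a high-fat diet and non-tumour tissue, of 20 in the series, 4 from exercised and 4 from non-exercised animals. All were male wild type mice of the strain given as C56BL/6, killed at 35 weeks of age. Every mouse of both arms had received the carcinogen 7,12-dimethylbenz(a)anthracene (DMBA) on the back at postnatal day 4 to 5, as 50 μL of a 0.5% solution in acetone. Every mouse of both arms then had a diet with 60 kcal% fat, first through the mother and after weaning at 4 weeks directly, and weighed over 45 g at the end. All mice of the series had 12 h of light a day. Arms were separated at 20 weeks. The exercised arm was trained for 5 weeks from a speed of 10 m/min, and then ran for 20 min a day at 18 m/min 5 days weekly over the final 10 weeks, while the other arm stayed in cages in the same room. All were killed on 1 day within 2 h of the final run, at a clock hour that is not given in the sources used here, nor is the time of the last meal. Whether the arms differed in either was not tested. Every exercised animal had both the training weeks and a recent run, so these cannot be told apart. The same mice also gave tumour pieces (8 libraries), and 4 libraries came from mice on a normal diet with 12 kcal% fat that did not exercise, had the same DMBA treatment and were also 35 weeks old.

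The title of the series links regular exercise to circadian genes and to the proteins E2F1 and c-Myc. In the clock of mammalian cells, the factors CLOCK and BMAL1 (gene Arntl) switch on the genes of their own repressors, the PER, CRY and REV-ERB proteins, and of output factors such as DBP and TEF. Liver runs this loop in step with light, feeding and hormones, and many of its metabolic enzymes follow it, so that the hour and the last meal set the level of clock genes. E2F1 and c-Myc are factors of cell division that are controlled in large part through protein breakdown, which counts of RNA do not measure.

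The 4 non-exercised libraries held 16471378 to 18142796 counts and the 4 exercised libraries 16809124 to 19513821. Log2 CPM values (counts scaled to the library size, with TMM factors) correlated at r = 0.98 to 0.988 between non-exercised and at r = 0.967 to 0.988 between exercised libraries. On the first principal component of the 2000 most variable genes, which held 43.8% of their variance, exercised mouse 2 (-22.6) lay among the non-exercised mice (-28.9 to 6.00), and exercised mice 1, 3 and 4 lay at 40.6, 15.9 and 23.0. On the second (17.5%), exercised mice 1 and 2 (21.8 and 24.3) lay outside the non-exercised range (-16.7 to 3.10), and exercised mice 3 and 4 (-14.4 and -4.51) within it. Exercised mice 2 and 3 correlated more with the non-exercised libraries (mean r = 0.98 and 0.982) than with the other exercised ones (0.972 and 0.98). Hepatocyte identity genes summed to 65700, 91320, 72850 and 78490 CPM in non-exercised and 84000, 102700, 90180 and 94110 CPM in exercised libraries, in order of mouse 1 to 4, so the liver label held in all 8. Pancreatic acinar genes were near absent, with 6 of 10 at 0 in all 8 libraries. The share of counts held by Alb, the gene of serum albumin, was 6.12% ± 0.971 (SD, n = 4) with and 5.31% ± 0.958 (SD, n = 4) without exercise (exact two-sided permutation test, p = 0.314). Mitochondrially encoded genes held 5.44% ± 0.440 and 5.19% ± 0.594 (p = 0.457, same exact test) and haemoglobin genes 0.0247% ± 0.0146 and 0.0236% ± 0.0118 (p = 0.914, same exact test). The smallest p that 4 against 4 allows is 0.0286.

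Of 14428 genes tested, 2 passed edgeR's quasi-likelihood test (0.0139%), with p adjusted by Benjamini-Hochberg and a threshold of 0.05, and both were higher in the exercised mice. They were Usp2, which encodes a deubiquitinating enzyme and is a rhythmic clock output in liver, and Mbd1, which encodes a protein that binds methylated DNA and represses transcription. None was lower. At an unadjusted p under 0.05 stood 1203 genes (8.34%), 575 of them higher (3.99%) and 628 lower (4.35%) with exercise. In 366 genes (2.54%) all 4 exercised libraries lay above all 4 non-exercised ones, and in 328 (2.27%) all lay below. The median log2 fold change over all genes was -0.0084. DESeq2, run as an alternative on the same counts, called 117 of 13024 genes with an adjusted p (0.898%), 95 higher (0.729%) and 22 lower (0.169%). The number of calls rested on single libraries: without exercised mouse 3 edgeR called 72 genes, 66 of them higher, without non-exercised mouse 1 or 3 it called 0, and without exercised mouse 1 or 4 or non-exercised mouse 2 or 4 it called 1. Genes named below beyond the clock genes, these 2 genes and abundant members of each list were chosen after their values were seen, mostly because DESeq2 called them. The gene lists were drawn up with earlier results of these data known, so counts of their members beside the background are no test. Fold changes are log2 values of edgeR ± SE, exercised minus non-exercised.

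Usp2 had CPM values of 2.13, 2.78, 1.74 and 2.86 in non-exercised mice 1 to 4 and 40.3, 14.4, 7.61 and 12.2 in exercised mice 1 to 4. All exercised libraries lay above all non-exercised ones, exercised mouse 1 highest and mouse 3 lowest of its arm. Usp2 was higher in the exercised arm by 2.96 ± 0.39 on the log2 scale (edgeR, adjusted p = 0.00654, with 4 of 4 exercised mice above every non-exercised mouse). Without exercised mouse 1 the difference was 2.27 (adjusted p = 0.000561). The call was lost without non-exercised mouse 1 (adjusted p = 0.0685) or mouse 3 (0.0712), and over all alternatives adjusted p ran from 1.19e-10 (DESeq2) to 0.642. Usp2 lies on chromosome 9, at positions 43978318 to 44006924 of GRCm39, on the plus strand, with an exon length of 4818 bases and no other gene on that strand over it. Counting used the strand, so the genes Gm49380 and Gm39325 on the opposite strand were counted apart. The 250 bases before a RefSeq start of Usp2 (chr9:44084670-44084919, GRCm38.p6, plus strand) are shown because Usp2 was the gene with the smallest adjusted p. The files' own coordinates are on another build, GRCm39, and the builds were not lined up. Whether this start is the first of the gene was not determined, and any other start of Usp2 was not searched.
Usp2: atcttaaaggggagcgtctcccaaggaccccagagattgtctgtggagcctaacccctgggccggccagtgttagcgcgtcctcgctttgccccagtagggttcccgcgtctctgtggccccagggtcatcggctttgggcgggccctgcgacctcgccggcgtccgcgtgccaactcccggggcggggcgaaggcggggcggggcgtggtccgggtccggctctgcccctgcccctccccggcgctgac
This window holds none of the 4 motifs searched on both strands, which were the E-box CACGTG that CLOCK and BMAL1 bind, the D-box TTANGTAA of DBP and TEF, the AGGTCA element of ROR and REV-ERB factors with its A- and T-rich flank, and the palindromic element of the glucocorticoid receptor.

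Mbd1 had 40.2, 55.9, 50.2 and 45.8 CPM in non-exercised mice 1 to 4 and 141, 87.5, 91.2 and 144 CPM in exercised mice 1 to 4. The groups did not overlap, with exercised mice 1 and 4 well above mice 2 and 3. Mbd1 was higher in the exercised arm by 1.27 ± 0.20 on the log2 scale (edgeR, adjusted p = 0.0395, with 4 of 4 exercised mice above every non-exercised mouse). This call was near the threshold. It was lost without any 1 of the non-exercised mice 1 to 4 (adjusted p = 0.363, 0.093, 0.207 and 0.305) and without exercised mouse 1 (0.264) or mouse 4 (0.132), while the difference stayed between 1.16 and 1.39 in every alternative; adjusted p over the alternatives ran from 5.31e-06 (DESeq2) to 0.642. Mbd1 lies on chromosome 18, at 74400676 to 74415803 of GRCm39, on the plus strand, with an exon length of 6778 bases and no overlapping gene on either strand.

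**Figure D1:**
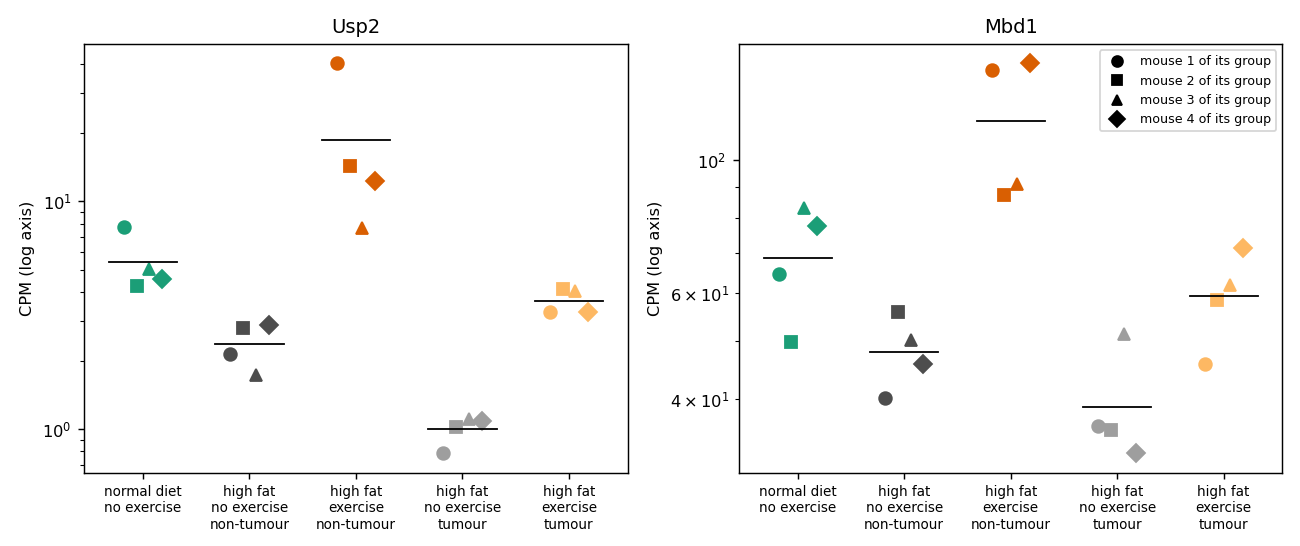
CPM of Usp2 (left) and Mbd1 (right) in each of the 20 libraries, on a log axis, by group; a symbol stands for a mouse number within its group and a line for the mean of 4 libraries. In non-tumour liver all 4 exercised mice lie above all 4 non-exercised mice for both genes, and the Usp2 values of exercised mice spread from 7.61 to 40.3 CPM.

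The repressors of the clock lay higher in exercised mice by count. Of 14 members, all tested, 8 stood at an unadjusted p under 0.05, all of them higher (background 3.99%), and 7 had all 4 exercised libraries above all non-exercised ones (background 2.54%). Their median log2 fold change was 0.43. None passed the adjusted threshold in edgeR, and DESeq2 called 4 of them, all higher (background 0.729%). The count at unadjusted p was 6 to 8 when any 1 library was left out.

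Ciart, a repressor that acts on CLOCK and BMAL1, was the member with the largest difference. It had 0.112, 0.749, 0.248 and 0.871 CPM in non-exercised and 14.5, 10.2, 1.16 and 5.63 CPM in exercised mice, in order of mouse. All exercised mice lay above all non-exercised ones, but exercised mouse 3 stood close to the highest of them. The log2 fold change was 3.96 ± 0.75 (edgeR adjusted p = 0.123, DESeq2 adjusted p = 0.000123). At these levels counts are few, since 1 CPM is 16.5 counts in the smallest library.

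The period genes Per1, Per2 and Per3 encode the PER repressors. Per3 had 3.81, 5.57, 4.81 and 6.53 CPM without and 20.1, 12.3, 8.77 and 16.6 CPM with exercise. The groups did not overlap, and the log2 fold change was 1.48 ± 0.31 (edgeR adjusted p = 0.141, DESeq2 0.00296). Per1 had 8.81, 14.3, 19.2 and 17.9 CPM without and 30.3, 38.9, 21.2 and 36.0 CPM with exercise. Exercised mouse 3 was only just above the highest non-exercised mouse, and the log2 fold change was 1.07 ± 0.27 (edgeR adjusted p = 0.203, DESeq2 0.019). Per2 had 8.69, 16.3, 8.59 and 14.3 CPM without and 25.5, 18.6, 17.9 and 22.8 CPM with exercise. Its groups stood apart by a small margin, with a log2 fold change of 0.82 ± 0.22 (edgeR adjusted p = 0.212, DESeq2 0.0358).

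Nr1d1 and Nr1d2 encode the REV-ERB receptors, which repress Arntl. Nr1d2 had 50.3, 60.8, 58.8 and 59.6 CPM without and 112, 95.9, 74.6 and 91.1 CPM with exercise, and Nr1d1 had 50.5, 49.5, 50.8 and 51.1 and 71.0, 101, 60.2 and 65.1 CPM. For both genes every exercised mouse lay above every non-exercised one. The log2 fold changes were 0.70 ± 0.20 and 0.56 ± 0.25 (edgeR adjusted p = 0.227 and 0.572). The cryptochrome genes differed from each other in sign. Cry2 had 24.3, 25.1, 22.0 and 24.7 CPM without and 29.6, 30.1, 28.3 and 30.5 CPM with exercise, a small difference of 0.30 ± 0.09 on the log2 scale in narrow groups that did not overlap (edgeR adjusted p = 0.268). Cry1 had 15.9, 20.98, 15.1 and 15.2 CPM without and 7.47, 7.68, 17.9 and 14.1 CPM with exercise. Its groups overlapped, exercised mice 1 and 2 being lowest, and the log2 fold change was -0.51 ± 0.35 (edgeR adjusted p = 0.75). Bhlhe41, which encodes a repressor at E-boxes, had 0.729, 0.696, 0.745 and 1.11 CPM without and 5.77, 1.33, 1.16 and 0.704 CPM with exercise. Its difference of 1.42 ± 0.59 rested largely on exercised mouse 1, and the groups of its relative Bhlhe40 overlapped (log2 fold change 0.10 ± 0.31).

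Promoter windows of 20 clock genes were matched in RefSeq, on GRCm38.p6, as 29 windows of 250 bases upstream. An E-box was present in 6 of the 29 windows, of 5 genes (Bhlhe41, Ciart, Cry1, Per1 and Tef), and in 6.02% of all 32851 windows. A D-box was present in 2 of the 29 (Per3 and Rorb) and in 2.06% of all windows. The ROR element and the glucocorticoid element were in none of the 29, and in 0.177% and 0.387% of all windows. A match of letters describes the window and is no evidence of binding. The windows of Ciart (chr3:95882229-95882478, minus strand), Per1 (chr11:69098699-69098948, plus strand), Per3 (chr4:151044666-151044915, minus strand) and Tef (chr15:81802423-81802672, plus strand) are printed 5′ to 3′ because these genes had groups that did not overlap and carry a match, which is in capitals (E-boxes in Ciart, Per1 and Tef, D-boxes in Per3).
Ciart: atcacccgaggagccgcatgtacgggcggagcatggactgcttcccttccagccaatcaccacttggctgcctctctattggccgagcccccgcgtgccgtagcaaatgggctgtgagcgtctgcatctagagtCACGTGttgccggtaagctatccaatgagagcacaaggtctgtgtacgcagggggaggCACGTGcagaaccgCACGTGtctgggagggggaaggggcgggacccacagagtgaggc
Per1: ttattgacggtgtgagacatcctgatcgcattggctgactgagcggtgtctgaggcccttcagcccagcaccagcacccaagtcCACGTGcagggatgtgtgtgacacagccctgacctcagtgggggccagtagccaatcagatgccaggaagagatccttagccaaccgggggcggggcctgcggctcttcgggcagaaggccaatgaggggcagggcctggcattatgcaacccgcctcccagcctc
Per3: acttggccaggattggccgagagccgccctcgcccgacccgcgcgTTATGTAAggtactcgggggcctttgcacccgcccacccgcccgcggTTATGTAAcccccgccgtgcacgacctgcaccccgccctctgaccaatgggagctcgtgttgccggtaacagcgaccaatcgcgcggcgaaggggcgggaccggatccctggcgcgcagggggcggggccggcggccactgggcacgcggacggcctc
Tef: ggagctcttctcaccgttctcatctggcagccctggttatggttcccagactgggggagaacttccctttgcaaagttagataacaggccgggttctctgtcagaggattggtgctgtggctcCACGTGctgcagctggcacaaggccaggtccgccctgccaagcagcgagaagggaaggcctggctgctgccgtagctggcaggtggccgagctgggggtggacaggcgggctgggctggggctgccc
Ciart has 3 E-boxes in its window, Per3 has 2 D-boxes, and the windows of Per1 and Tef shown have 1 E-box each. Cry1, whose groups overlapped, also holds an E-box.

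Clock outputs lay higher by count. Of 13 output factors and rhythmic targets, all tested, 8 stood at an unadjusted p under 0.05, all higher (background 3.99%), 5 had all exercised libraries above (background 2.54%), and the median log2 fold change was 0.56. Usp2 passed in edgeR, and DESeq2 called 5 members, all higher (background 0.729%). Between 7 and 9 members stood at that p when any 1 library was left out. Dbp and Tef encode factors that bind D-boxes. Dbp had 11.2, 11.9, 7.99 and 11.5 CPM without and 106, 44.1, 20.0 and 51.7 CPM with exercise. All exercised mice lay above all non-exercised ones, mouse 3 lowest and mouse 1 highest, and the log2 fold change was 2.38 ± 0.50 (edgeR adjusted p = 0.141, DESeq2 0.000465). Tef had 41.7, 60.4, 43.9 and 52.0 CPM without and 153, 108, 80.7 and 117 CPM with exercise. The groups did not overlap, and the log2 fold change was 1.21 ± 0.23 (edgeR adjusted p = 0.123, DESeq2 0.000552). Hlf, the third factor of that family, had 46.7, 50.0, 42.8 and 48.4 and 70.1, 59.2, 62.4 and 60.0 CPM, again without overlap, and a smaller difference of 0.42 ± 0.14 on the log2 scale (edgeR adjusted p = 0.364). Nfil3, which represses the genes those factors switch on, had 41.2, 43.2, 44.2 and 36.9 CPM without and 23.8, 33.4, 37.8 and 37.6 CPM with exercise. Its groups overlapped, with a log2 fold change of -0.32 ± 0.22 (edgeR adjusted p = 0.758).

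Por, the electron donor of the microsomal cytochromes, and Lpin1, a phosphatidate phosphatase and coactivator, are rhythmic enzymes of the same list. Por had 101, 115, 91.9 and 84.4 CPM without and 359, 280.2, 124 and 269.5 CPM with exercise. All exercised mice lay above, mouse 3 nearest, and the log2 fold change was 1.40 ± 0.27 (edgeR adjusted p = 0.123, DESeq2 0.00033). Lpin1 had 55.2, 87.5, 104 and 95.3 CPM without and 754, 658, 101 and 293 CPM with exercise. Exercised mouse 3 lay within the non-exercised range and the other exercised mice far above it (log2 fold change 2.40 ± 0.53, edgeR adjusted p = 0.143, DESeq2 0.00318).

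Of the activators, 5 of 6 were tested (Rorb was at 0 in all 8 libraries), and 2 stood at an unadjusted p under 0.05, both lower (background 4.35%) and both with all exercised libraries below (background 2.27%). Npas2, the partner of BMAL1 that can stand in for CLOCK, had 10.99, 9.21, 8.09 and 8.42 CPM without and 0.668, 2.21, 4.08 and 2.98 CPM with exercise. All exercised mice lay below, mouse 1 lowest and mouse 3 highest, and the log2 fold change was -1.86 ± 0.44 (edgeR adjusted p = 0.174, DESeq2 0.00611). Arntl had 24.5, 25.1, 26.1 and 24.6 CPM without and 3.46, 12.2, 19.4 and 13.5 CPM with exercise. The non-exercised mice were within a narrow band and the exercised mice spread below it, for a log2 fold change of -1.04 ± 0.39 (edgeR adjusted p = 0.442). Clock itself had 65.2, 69.9, 66.3 and 71.5 and 55.2, 61.9, 70.6 and 59.2 CPM, with overlapping groups and a log2 fold change of -0.14 ± 0.14 (edgeR adjusted p = 0.855). Exercised mouse 1 was thus the farthest from the non-exercised mice, and exercised mouse 3 the nearest, for Usp2, Dbp, Tef, Ciart, Per3, Npas2 and Arntl alike.

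**Figure D2:**
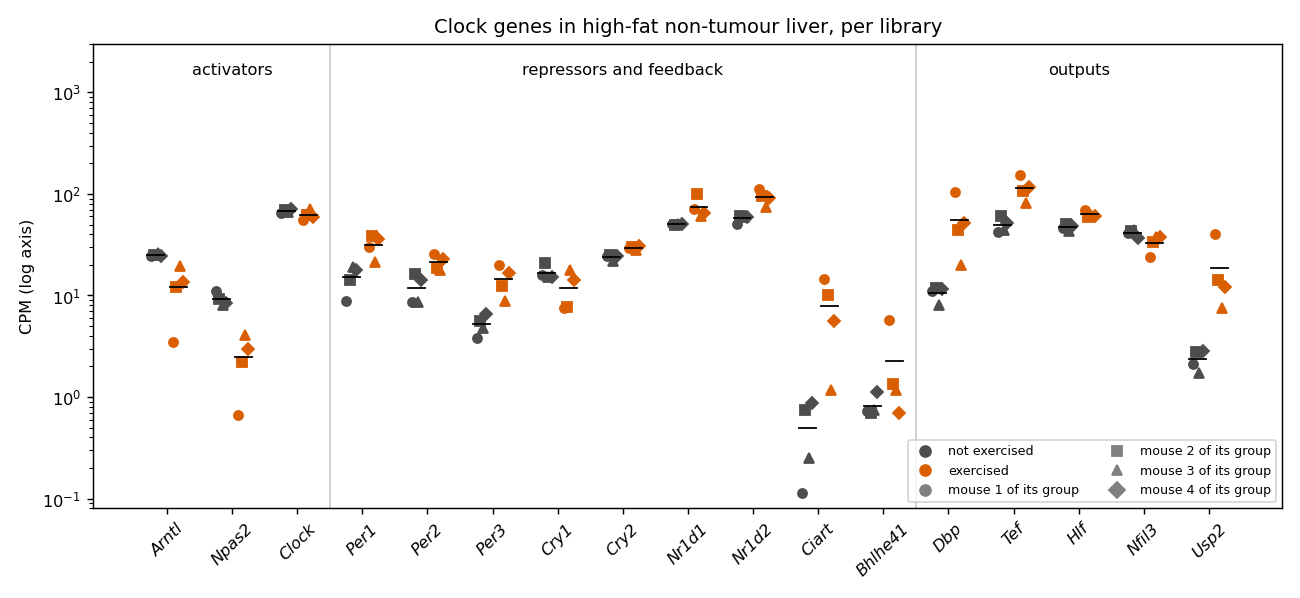
CPM of 17 clock genes in the 8 non-tumour libraries of mice on the high-fat diet, on a log axis; dark symbols are non-exercised and orange symbols exercised mice, the shape gives the mouse number within its arm, and a line is the mean of 4. Repressors such as Per3 and Ciart and outputs such as Dbp and Usp2 lie higher in the exercised mice, Arntl and Npas2 lie lower, and exercised mouse 3 (triangles) is often closest to the dark symbols.

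E2f1 and Myc, the genes of the proteins in the title, did not pass. E2f1 had 5.22, 5.03, 5.41 and 6.49 CPM without and 5.77, 6.35, 6.61 and 6.50 CPM with exercise. The groups overlapped in a narrow range, with a log2 fold change of 0.19 ± 0.14 (edgeR adjusted p = 0.786). Myc had 2.97, 2.03, 7.39 and 7.21 CPM without and 15.2, 8.22, 5.39 and 7.09 CPM with exercise. Exercised mouse 1 was highest and non-exercised mice 1 and 2 lowest, and the log2 fold change was 0.86 ± 0.46 (edgeR adjusted p = 0.653). Among genes that act with or after them, 1 of 13 of the E2F and retinoblastoma family, 3 of 30 for DNA replication and S phase, 0 of 11 of the Myc, Max and Mxd network and 0 of 26 for G2 and mitosis were higher at an unadjusted p under 0.05, and none of these was lower. Of 26 nucleolar Myc targets 1 was lower and 0 were higher. Their median log2 fold changes were 0.037, 0.13, -0.038, -0.21 and -0.022, in that order. Over all genes, 3.99% were higher and 4.35% lower at an unadjusted p under 0.05. Log2 fold changes were above 0 in 25 of the 30 S phase genes and 5 of the 26 for G2 and mitosis, against 48% of all genes. Mki67, a marker of dividing cells, had 6.62, 3.32, 9.23 and 13.8 CPM without and 3.28, 13.9, 4.34 and 3.57 CPM with exercise. The groups overlapped, exercised mouse 2 and non-exercised mouse 4 having the highest values (log2 fold change -0.39 ± 0.44, edgeR adjusted p = 0.889). Of 15 tested components of the ubiquitin ligases for E2F1 and Myc, 0 stood at an unadjusted p under 0.05.

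Genes of the glucocorticoid response lay higher by count. Of 14 targets of the glucocorticoid receptor and metallothioneins, all tested, 8 were higher at an unadjusted p under 0.05 and 0 lower (background 3.99% and 4.35%). Their median log2 fold change was 0.55, and DESeq2 called 3, all higher (background 0.729%). Only 1, Tat, had groups that did not overlap (background 2.54%). Fkbp5, a chaperone partner that responds to glucocorticoids, had 16.9, 22.3, 24.3 and 20.0 CPM without and 98.0, 135, 21.7 and 49.8 CPM with exercise. Exercised mouse 3 lay within the non-exercised range and the other exercised mice above it (log2 fold change 1.86 ± 0.53, edgeR adjusted p = 0.254, DESeq2 0.019). Zbtb16 had 3.20, 3.85, 6.35 and 5.42 CPM without and 64.9, 90.0, 3.48 and 6.07 CPM with exercise. Exercised mice 1 and 2 were far above, and mice 3 and 4 were within the non-exercised range (log2 fold change 3.12 ± 0.87, edgeR adjusted p = 0.236, DESeq2 0.0188). Tdo2, the first enzyme of tryptophan breakdown, had 1402, 2039, 1346 and 1397 CPM without and 2582, 2289, 1833 and 2111 CPM with exercise. Non-exercised mouse 2 lay above exercised mouse 3, and the log2 fold change was 0.51 ± 0.14 (edgeR adjusted p = 0.228, DESeq2 0.0288). The metallothionein genes Mt1 and Mt2 differed by 2.18 ± 0.77 and 2.90 ± 0.94, with overlapping groups.

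Of 23 tested genes for gluconeogenesis, glucose use and insulin signalling, 6 were higher and 0 lower at an unadjusted p under 0.05 (background 3.99% and 4.35%; median log2 fold change 0.15), and 4 had all exercised libraries above (background 2.54%). Foxo1, Foxo3 and Klf15 encode factors that drive glucose and amino acid use in fasting. Foxo1 had 28.1, 35.7, 34.8 and 35.5 CPM without and 89.9, 64.8, 37.3 and 60.2 CPM with exercise, Foxo3 33.5, 42.9, 40.0 and 43.7 and 106, 82.2, 45.1 and 68.2, and Klf15 109.9, 158, 121 and 108 and 296, 190.1, 166 and 254. In each the groups did not overlap and exercised mouse 3 was the lowest of its arm. The log2 fold changes were 0.91 ± 0.21, 0.91 ± 0.22 and 0.87 ± 0.23 (edgeR adjusted p = 0.174, 0.174 and 0.211; DESeq2 0.00995, 0.0117 and 0.0259). Pck1, the gene of a rate-limiting enzyme of gluconeogenesis, had 1094, 1510, 1594 and 1279 CPM without and 3297, 2775, 1710 and 2804 CPM with exercise. The groups stood apart, but the log2 fold change of 0.95 ± 0.38 had an edgeR adjusted p of 0.503. Ppargc1a, a coactivator of mitochondrial and fasting genes, had 7.07, 10.2, 7.94 and 10.7 CPM without and 15.3, 20.0, 12.3 and 17.1 CPM with exercise. All exercised mice lay above (log2 fold change 0.85 ± 0.18, edgeR adjusted p = 0.141, DESeq2 0.00416). Of 15 periportal and urea cycle genes, 5 were higher and 0 lower at that p (background 3.99% and 4.35%; 3 higher without exercised mouse 1 or non-exercised mouse 1, 8 without non-exercised mouse 2). Among them Asl, the urea cycle enzyme argininosuccinate lyase, had 289, 379, 273 and 290.2 CPM without and 532, 444, 351 and 563 CPM with exercise. Non-exercised mouse 2 overlapped the exercised range (log2 fold change 0.62 ± 0.16, edgeR adjusted p = 0.197, DESeq2 0.0203).

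Of 20 genes for cytochromes and xenobiotic metabolism, 6 were higher and 0 lower at an unadjusted p under 0.05 (background 3.99% and 4.35%; 3 higher without exercised mouse 1), with a median log2 fold change of 0.41. Alas1, the first enzyme of haem synthesis, had 201, 329, 335 and 220.5 CPM without and 1360, 710.4, 387 and 869.5 CPM with exercise. Every exercised mouse lay above, mouse 3 only just (log2 fold change 1.62 ± 0.42, edgeR adjusted p = 0.212, DESeq2 0.0132). Cyp2b10, the classic target of the receptor CAR, had 0.393, 0.749, 0.149 and 0.726 CPM without and 6.99, 26.8, 0.353 and 12.6 CPM with exercise. Exercised mice 1, 2 and 4 stood well above a group near 0 and mouse 3 within it (log2 fold change 4.52 ± 1.06, edgeR adjusted p = 0.174, DESeq2 0.00416). The count of male-biased genes of the growth hormone axis rested on single animals. Of 20, 4 were higher and 0 lower at an unadjusted p under 0.05 (background 3.99% and 4.35%), but 0 higher without exercised mouse 1, 1 without non-exercised mouse 2, 2 without non-exercised mouse 4 and 7 without exercised mouse 2. Hsd3b5, a steroid enzyme of male liver, had 0.617, 0.107, 1.39 and 0.145 CPM without and 179.8, 0.148, 4.29 and 0.217 CPM with exercise. Exercised mouse 1 lay within the range of the normal diet mice (305, 159.6, 281 and 346 CPM) and the other 7 libraries near 0. Members such as Serpina1e belong to families of near-identical genes, whose reads may be left uncounted or split.

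No lipid gene passed in edgeR. Of 23 genes for fatty acid and triglyceride synthesis 2 were higher and 3 lower at an unadjusted p under 0.05 (background 3.99% and 4.35%; median log2 fold change -0.099), of 18 for lipid droplets 0 were higher and 2 lower (-0.2), of 31 for fatty acid oxidation 2 were higher and 0 lower (0.028), and of 25 for cholesterol and 20 for bile acids 0 in either direction. Pnpla3, a lipid droplet protein gene that follows feeding and is linked to fatty liver, was the 1 gene of the synthesis and droplet lists that DESeq2 called (background 0.169% lower). It had 1.74, 2.73, 3.08 and 2.81 CPM without and 0.608, 1.62, 0.655 and 0.379 CPM with exercise. Every exercised mouse lay below, though exercised mouse 2 was close to non-exercised mouse 1 (log2 fold change -1.64 ± 0.36, edgeR adjusted p = 0.141, DESeq2 0.00416). Scd1, the desaturase that makes oleate, had 9912, 8800, 11780 and 14140 CPM without and 3598, 8917, 5077 and 8651 CPM with exercise. Exercised mouse 2 lay within the non-exercised range (log2 fold change -0.77 ± 0.35, edgeR adjusted p = 0.574). Of 23 nuclear genes of the respiratory chain, 0 stood at an unadjusted p under 0.05.

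**Figure D3:**
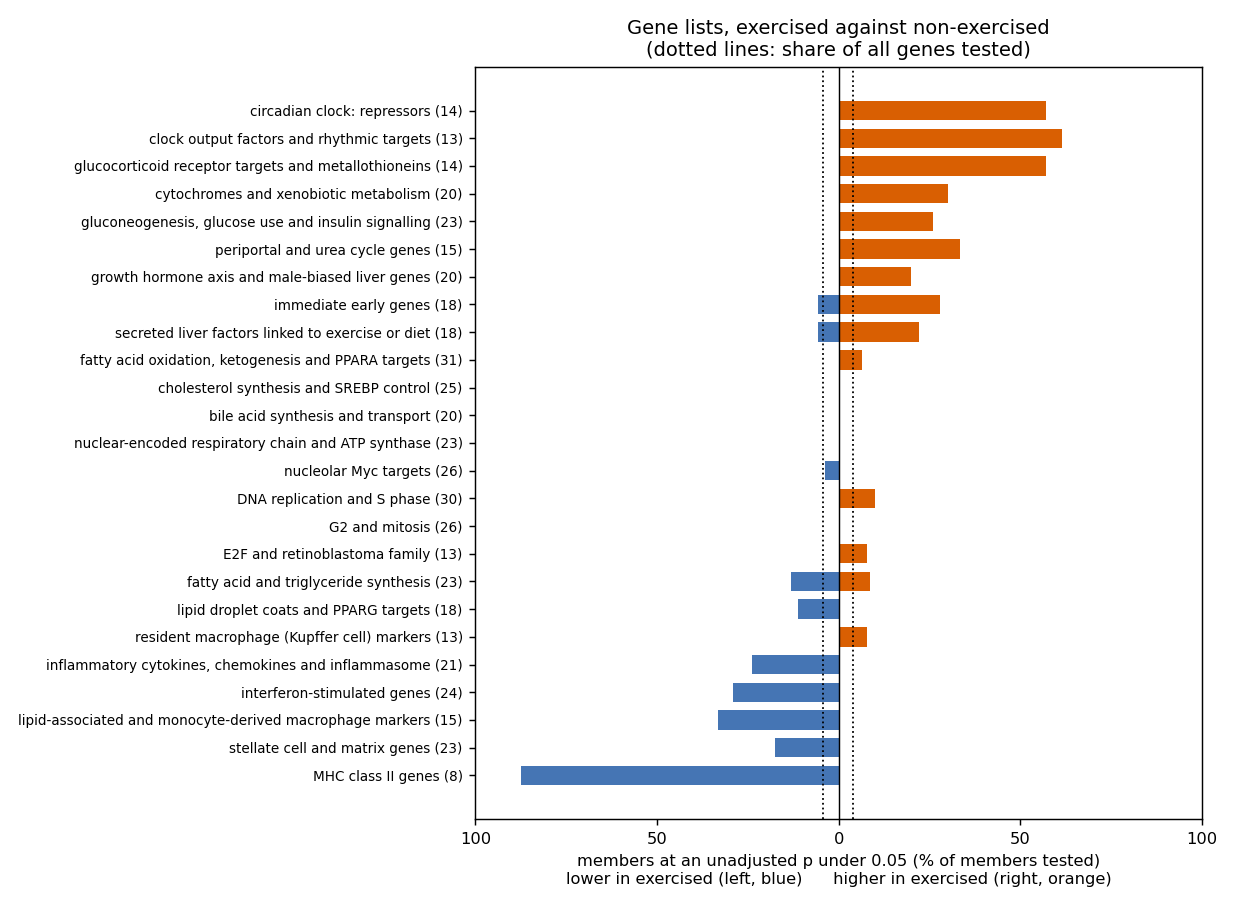
Share of the tested members of 25 gene lists that stood at an unadjusted p under 0.05 in edgeR, higher with exercise to the right and lower to the left, with the number tested in brackets; dotted lines mark the share over all 14428 genes (3.99% higher, 4.35% lower). Clock repressors, clock outputs and glucocorticoid targets reach far to the right and MHC class II genes far to the left, while cholesterol, bile acid and respiratory chain genes have no bar.

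On the lower side, the MHC class II list stood out by count. It holds genes for presenting antigen to T cells and also their activator, Ciita. Of 8 tested, 7 were lower at an unadjusted p under 0.05 and 0 higher (background 4.35% lower), with a median log2 fold change of -1.44, and DESeq2 called 5, all lower (background 0.169%). The count was 5 to 8 when any 1 library was left out. The other members share Ciita as activator, and all share the same 8 libraries, so the count is not one of independent genes. Ciita, the master activator of this gene family, had 5.38, 3.48, 10.1 and 7.21 CPM without and 2.13, 2.85, 2.02 and 1.68 CPM with exercise. All exercised mice lay below all non-exercised mice (log2 fold change -1.59 ± 0.39, edgeR adjusted p = 0.18, DESeq2 0.0163). Cd74, the invariant chain, had 207, 87.1, 329 and 219 CPM without and 77.8, 122, 59.5 and 60.2 CPM with exercise. Here non-exercised mouse 2 lay within the exercised range and below exercised mouse 2 (log2 fold change -1.40 ± 0.41, edgeR adjusted p = 0.268, DESeq2 0.0445). H2-Aa, H2-Ab1 and H2-Eb1, which encode chains of the class II molecules, differed by -1.49 ± 0.44, -1.59 ± 0.46 and -1.55 ± 0.45 on the log2 scale, again with non-exercised mouse 2 below exercised mouse 2. In whole tissue, fewer cells of a type and less RNA per cell cannot be told apart.

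Markers of immune cells were set beside them. The summed CPM of the 8 tested members of the class II list, Ciita included, was 519, 204, 813 and 524 without and 177, 296, 132 and 139 with exercise. The 15 macrophage markers of the lipid-associated and monocyte-derived kind summed to 356, 205, 461 and 489 without and 209.7, 349.7, 251 and 205 with exercise, again with non-exercised mouse 2 low and exercised mouse 2 high. Of these 15, 5 were lower and 0 higher at an unadjusted p under 0.05 (background 4.35% lower; median log2 fold change -0.88), among them Trem2 (-1.23 ± 0.53) and Ccr2 (-1.15 ± 0.40). The count was 2 without non-exercised mouse 3, 3 without exercised mouse 1, 9 without non-exercised mouse 2 and 10 without exercised mouse 2. The 13 markers of resident Kupffer cells summed to 719.6, 570.3, 748 and 722 without and 749.6, 626, 665 and 738 with exercise. These sums overlapped between the groups, and 1 Kupffer marker, the scavenger receptor Marco, was higher at that p (2.12 ± 0.81, background 3.99% higher). The 16 tested markers of T, NK and B cells summed to 25.9, 26.6, 88.2 and 36.5 and 44.3, 24.9, 30.8 and 19.2, with non-exercised mouse 3 highest, and 1 of them, Cd3e, was lower (-1.90 ± 0.78). The part of cell numbers in the class II values was not tested.

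Against a background of 4.35% of all genes lower at an unadjusted p under 0.05, interferon-stimulated genes counted 7 lower and 0 higher of 24 (median log2 fold change -0.35), among them Cxcl9 (-1.46 ± 0.46). That count was 10 without exercised mouse 2, 2 without exercised mouse 1, 3 without non-exercised mouse 3, and 4 without non-exercised mouse 1 or 4 or exercised mouse 3. Stellate cell and matrix genes counted 4 lower and 0 higher of 23 against the same background (median -0.52), among them Col3a1 (-0.97 ± 0.42) and Lox (-1.39 ± 0.47). That count was 14 without exercised mouse 2, 11 without non-exercised mouse 2, and 2 without non-exercised mouse 3 or 4 or exercised mouse 1, 3 or 4. Cytokine and inflammasome genes counted 5 lower and 0 higher of 21, against the same background (median -0.056, with 10 of the 21 above 0). That count was 1 without non-exercised mouse 3, 2 without non-exercised mouse 4 or exercised mouse 1 or 3, 3 without exercised mouse 4 and 8 without exercised mouse 2. None of these genes passed in edgeR or was called by DESeq2.

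**Figure D4:**
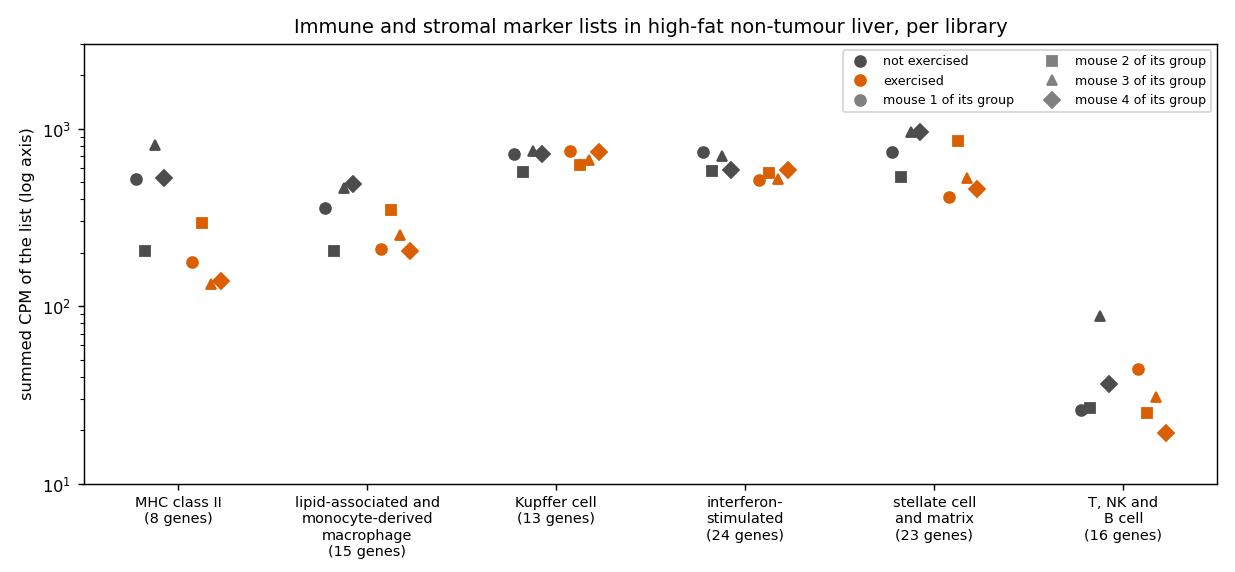
Summed CPM of the tested members of 6 immune and stromal marker lists in the 8 non-tumour libraries, on a log axis; dark symbols are non-exercised and orange symbols exercised mice, and the shape gives the mouse number within its arm. Class II sums run from 204 to 813 CPM without and 132 to 296 CPM with exercise, so the groups overlap at mouse 2 of each arm, and Kupffer cell sums do not separate.

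Among other genes that DESeq2 called, Klf13, which encodes a zinc finger factor, had the lowest edgeR adjusted p of the named genes that did not pass. It had 24.1, 32.4, 33.3 and 32.3 CPM without and 85.9, 84.1, 40.5 and 63.8 CPM with exercise. The groups did not overlap, exercised mouse 3 lying lowest of its arm (log2 fold change 1.17 ± 0.20, edgeR adjusted p = 0.079, DESeq2 8.06e-05). Il1r1 and Il6ra, receptors for interleukin 1 and 6, had 30.2, 29.7, 33.4 and 26.8 and 21.3, 25.3, 31.8 and 24.0 CPM without exercise. With exercise Il1r1 had 110.3, 61.1, 50.3 and 54.4 CPM and Il6ra 72.8, 86.9, 37.4 and 60.4 CPM, all above the non-exercised mice (log2 fold changes 1.20 ± 0.24 and 1.33 ± 0.31, edgeR adjusted p = 0.137 and 0.174). Pim3, a serine kinase, had 28.2, 41.0, 39.3 and 45.9 CPM without and 159, 97.8, 51.4 and 98.8 CPM with exercise, and Slc38a2, an amino acid transporter, 74.8, 114, 92.9 and 109.5 and 275, 152, 132 and 231 CPM. Both groups of values stood apart (log2 fold changes 1.40 ± 0.29 and 1.01 ± 0.23, edgeR adjusted p = 0.141 and 0.152). Upp2, a uridine phosphorylase, had 22.3, 40.5, 37.0 and 34.6 CPM without and 461, 250, 36.5 and 148 CPM with exercise, and Pfkfb3, a regulator of glycolysis, 8.30, 6.10, 13.3 and 11.1 and 79.2, 26.3, 10.8 and 23.8 CPM. For Upp2 and Pfkfb3 exercised mouse 3 lay within the non-exercised range while the other exercised mice lay above it. Herpud1, of the unfolded protein response, had 210.4, 318, 292 and 264 CPM without and 626, 605, 405 and 544 CPM with exercise, with no overlap (log2 fold change 1.01 ± 0.23, edgeR adjusted p = 0.152). On the lower side, Lsp1, a gene of white blood cells, had 8.19, 5.67, 10.8 and 6.82 CPM without and 2.67, 4.48, 4.54 and 3.25 CPM with exercise. Its exercised values were below every non-exercised value (log2 fold change -1.07 ± 0.27, edgeR adjusted p = 0.197).

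Whether these differences were particular to non-tumour liver was tested against the tumour pieces of the same mice. For the interaction of exercise and tissue, 0 of 14428 genes passed in edgeR (0%), 293 stood at an unadjusted p under 0.05 (2.03%), and DESeq2 and limma-voom also called 0. In tumours, 3 genes passed for exercise (0.0208%). Usp2 had 0.787, 1.03, 1.11 and 1.08 CPM in non-exercised and 3.27, 4.11, 4.05 and 3.27 CPM in exercised tumours. These tumour values did not overlap, and lay below those of non-tumour liver of the same arm. The log2 fold change in tumours was 1.86 ± 0.42 (edgeR adjusted p = 0.119), and the difference between tissues, tumour minus non-tumour, was -1.10 ± 0.57 (edgeR adjusted p = 1), and -0.42 without exercised non-tumour mouse 1. Mbd1 had 36.2, 35.6, 51.3 and 32.6 CPM in non-exercised and 45.9, 58.4, 62.0 and 71.4 CPM in exercised tumours, which overlapped. Its tumour fold change was 0.61 ± 0.20 (edgeR adjusted p = 0.384), and its difference between tissues was -0.66 ± 0.28 (edgeR adjusted p = 1). Neither gene was therefore shown to respond differently in the 2 tissues. Cry2 and Tef, which did not pass in non-tumour liver, passed in tumours with log2 fold changes of 0.62 ± 0.09 (adjusted p = 0.0232) and 1.46 ± 0.24 (adjusted p = 0.0423), beside 0.30 ± 0.09 and 1.21 ± 0.23 in non-tumour liver. The differences between tissues were 0.31 ± 0.13 and 0.24 ± 0.33 and did not pass (edgeR adjusted p = 1 and 1). The median log2 fold change of clock repressors was 0.43 in non-tumour and 0.69 in tumour pieces, that of clock outputs 0.56 and 0.91, and that of the class II list -1.44 and -0.81.

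**Figure D5:**
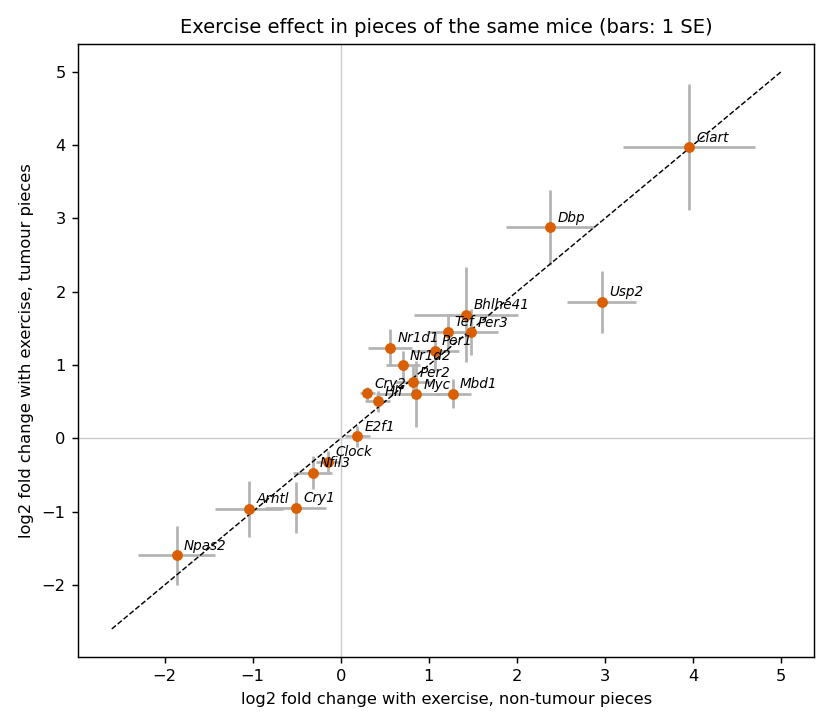
Log2 fold change with exercise in non-tumour pieces (horizontal) and in tumour pieces (vertical) for 20 genes, with bars of 1 SE from edgeR; the dashed line marks equal change. Dbp and Ciart are high in both tissues, Npas2 and Arntl low in both, and Usp2 and Mbd1 lie below the line, although no interaction passed.

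Levels in mice on the normal diet, not exercised, were set beside these. The diet difference, high-fat minus normal in non-exercised non-tumour liver, uses the same non-exercised libraries as the exercise difference, so these differences are not independent and only their own values are given. The source gives the normal diet mice no clock hour of collection either. Usp2 had 7.76, 4.25, 5.04 and 4.58 CPM in the normal diet mice, all above the 4 non-exercised mice on the high-fat diet, and normal diet mouse 1 was level with exercised mouse 3. Its diet difference was -1.18 ± 0.38 and its exercise difference 2.96 ± 0.39 on the log2 scale (edgeR adjusted p = 0.0303 and 0.00654). Mbd1 had 64.6, 49.8, 83.1 and 77.7 CPM in the normal diet mice, overlapping the non-exercised range, with a diet difference of -0.52 ± 0.20 (edgeR adjusted p = 0.0625). Alas1 had 516, 689, 869 and 778 CPM on the normal diet, within the range of the exercised mice, with a diet difference of -1.39 ± 0.42 beside an exercise difference of 1.62 ± 0.42 (edgeR adjusted p = 0.0225 and 0.212). Dbp stood the other way, with 1.46, 1.10, 1.03 and 1.21 CPM on the normal diet, below both high-fat groups. Its diet difference was 3.14 ± 0.62 and its exercise difference 2.38 ± 0.50 (edgeR adjusted p = 0.00206 and 0.141). Per3 had 1.93, 1.45, 2.01 and 1.72 CPM on the normal diet, also below both, with a diet difference of 1.54 ± 0.34 (edgeR adjusted p = 0.00391). Arntl had 40.6, 40.2, 40.8 and 45.0 CPM on the normal diet, above both high-fat groups, with a diet difference of -0.73 ± 0.37 (edgeR adjusted p = 0.158). Cd74 had 101, 85.4, 85.4 and 58.5 CPM on the normal diet. That range overlapped those of both high-fat arms, the non-exercised one through mouse 2 at 87.1 CPM. The diet difference of Cd74 was 1.35 ± 0.41 (edgeR adjusted p = 0.0225).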

How the data were processed

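RNA of 20 liver libraries was made from frozen tissue with a stranded mRNA kit, per the labels' protocols. Deposited per library was a table of unnormalised counts: featureCounts 2.0.5 counted reads over the exons of each GENCODE M27 gene on GRCm39 with strand setting 2, per the file headers. Trim Galore 0.6.10 and STAR 2.7.11a came before, per the submitters' processing notes. The headers name no option for multi-mapping or overlapping reads, so near-identical genes may be under-counted. From the counts, edgeR 4.0.16 (R 4.3.3, limma 3.58.1) fitted 5 group means to all 20 libraries by robust quasi-likelihood, with TMM factors, filterByExpr (minimum count 10, total 15; 14428 of 55359 genes kept) and 15 residual degrees of freedom. That fit took the tumour and non-tumour pieces of a mouse as independent, although they share an animal, so its degrees of freedom may be overstated. Tests were two-sided, with Benjamini-Hochberg adjustment over all genes tested and a threshold of 0.05. The SE is the log2 fold change over the root of F. CPM used TMM-scaled sizes. DESeq2 1.42.0, limma-voom, other scalings and filters, and leaving out each library were alternatives. List counts under these were added after seeing the data. The scripts were tested on simulated counts.

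Members and the 51 gene lists were chosen with earlier results of these data known. Named were the clock genes, E2f1, Myc, genes that passed, up to 4 called or 2 abundant members of each list, and for the interaction the 10 of smallest p; others were chosen after their values were seen. Titles number the mice, and both pieces of a numbered mouse share an animal; residuals of such pieces correlated at -0.0835 to 0.213 in the non-exercised and 0.0754 to 0.441 in the exercised arm. Within each group, any pair of libraries differed by a chi-square of at least 17.8 per gene (about 1 is sampling noise), and each was counted as its own library. Promoters are from RefSeq on GRCm38.p6. Some genes are not reported here.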

Additional observations from a re-analysis of the deposited data

Results flagged for a closer look

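Of 102 groups of 4 libraries examined, 8 had a highest or lowest value whose gap to its neighbour was over Dixon's 95% critical share of the group's range, a size that chance gives in about 5% of groups. In exercised mouse 1 these were Hsd3b5, at 179.8 CPM against 0.148 to 4.29 in the other exercised mice, and Bhlhe41, at 5.77 CPM against 0.704 to 1.33. In non-exercised mouse 2 they were Cry1, at 20.98 CPM against 15.1 to 15.9, Tdo2, at 2039 CPM against 1346 to 1402, and Asl, at 379 CPM against 273 to 290.2. In non-exercised mouse 1 they were Foxo1, at 28.1 CPM against 34.8 to 35.7, and Klf13, at 24.1 CPM against 32.3 to 33.3. In non-exercised mouse 4 Bhlhe41 stood at 1.11 CPM against 0.696 to 0.745.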

How the results depend on the processing

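The number of genes called with exercise, 2 by the edgeR fit, was 2 with RLE or upper-quartile scaling and with a filter of 1 CPM in 4 libraries, 1 with no filter on low counts, 0 when only the 2 groups were fitted, 0 with limma-voom and 117 with DESeq2 (95 higher, 22 lower). When 1 library was left out it ran from 0 to 72, and DESeq2 and the fit without exercised mouse 3 shared 57 calls. Numbers do not pair mice across the arms: deviations of same-numbered mice correlated at 0.0304, -0.392, -0.0645 and -0.182. With the mouse number as a replicate block 0 genes were called, adjusted p was 0.642 for both Usp2 and Mbd1, and 4 glucocorticoid targets stood at an unadjusted p under 0.05. With only the 2 groups, where no mouse gives more than 1 library, Usp2 had an edgeR adjusted p of 0.244 and Mbd1 of 0.193. With limma-voom, which took the mouse as a random block, their adjusted p was 0.161 and 0.119. Mbd1 had an edgeR adjusted p of 0.0678 with no filter. The interaction gave 0 calls in every setting run. Over 48 of the named genes and 16 settings, 768 of 768 differences kept their sign. Among them 54 became calls (DESeq2, or without exercised mouse 2 or 3) and 15 calls, all of Usp2 or Mbd1, were lost. Other named genes, such as Pck1, Scd1 and Mki67, were not in this tally. Many of the 48 were named because DESeq2 called them on these libraries, so a kept sign is weak evidence. With 1 library left out, the Alb share difference of 0.815 percentage points ran from 0.399 to 1.19 and the mitochondrial one of 0.251 from 0.0343 to 0.487. The haemoglobin share difference, 0.00113 percentage points, changed sign with single libraries left out, from -0.00494 to 0.00642; it was -0.000459 and -0.00285 without non-exercised mouse 1 and 4, and -0.00044 without exercised mouse 2. With 4 mice an arm and 1 CPM equal to 16.5 counts in the smallest library, small differences of low genes were not detectable.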
